A study of Mus musculus with 12 samples.

Results

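Somatosensory cortex from p53 knockout (KO) and wild-type (WT) mice given ethanol was compared by RNA-Seq to ask which transcripts differed with the loss of p53 after the exposure. The comparison takes 6 of the 12 libraries of the study, 3 labelled p53 KO with ethanol and 3 labelled WT with ethanol, chosen by these labels alone. All 12 pups were on a C57BL/6 background, were labelled male and were taken at postnatal day 7, 8 hours after the last intraperitoneal injection. The KO mice carried the Trp53tm1Tyj allele in the whole body from birth, and the other 6 libraries, from 3 WT and 3 KO pups given saline, served as the background. The sources do not say whether littermates were shared between groups, so the p-values measure the spread between these libraries.

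p53 is a transcription factor that is held low by Mdm2 and accumulates after DNA damage and other stresses. It then binds paired decamers in DNA and raises genes that halt the cell cycle (Cdkn1a, Ccng1), feed back on p53 itself (Mdm2) or open the mitochondrial pathway of cell death (Bax, Bbc3, Pmaip1). High ethanol in the first postnatal week of rodents is known to cause widespread death of young neurons, in which Bax is required.

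Several of the 6 libraries stood apart, and values without them are given beside results that changed with them. Total estimated counts were 15387284, 5060577 and 10861741 in WT ethanol libraries 1, 2 and 3, and 719735, 10311978 and 13119826 in KO ethanol libraries 1, 2 and 3. KO ethanol library 1 was the shallowest of all 12, and ribosomal protein genes took 11.1% of its counts, against 2.69% to 5.31% in the other 5 ethanol libraries. WT ethanol libraries 1 and 2 went against their male label. Xist, the RNA of the inactive X chromosome, had 15369 and 10016 counts there and at most 26 in any other library, while the 4 Y-linked genes Ddx3y, Eif2s3y, Kdm5d and Uty had 0 counts in both, which allows up to 0.195 and 0.593 CPM, the count scaled to a fixed library total, by counting error alone. The same 4 genes summed to 57 to 5086 counts in the other 10 libraries.

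Region markers also set WT ethanol library 1 apart. Tcf7l2, a marker of the thalamus, stood at 471 normalised CPM there and at 1.03 to 29.2 in the other 11 libraries. Calb2, which encodes the calcium-binding protein calretinin, stood at 870 CPM against 8.23 to 58.9. The choroid plexus list, led by the transthyretin gene Ttr, summed to 5102, 63.8 and 24.4 CPM in the WT ethanol libraries and to 1.67, 269 and 2226 CPM in the KO ethanol libraries, so this signal was uneven within both groups. In whole tissue of this kind, fewer cells of a type and less RNA per cell cannot be told apart.

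**Figure D1:**
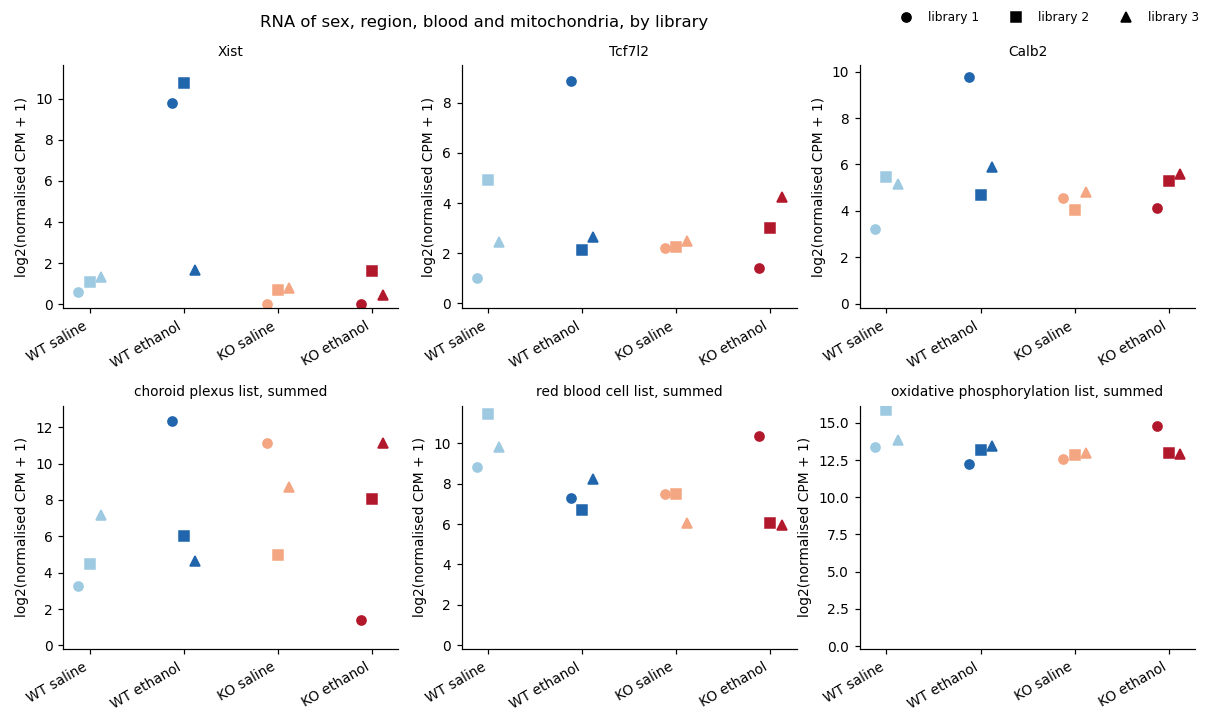
Levels of Xist, the thalamic gene Tcf7l2, the calretinin gene Calb2 and the summed choroid plexus, red blood cell and oxidative phosphorylation lists on a log2(normalised CPM + 1) scale (vertical axes) in the 4 groups (horizontal axes). Each point is 1 library, with its shape giving the library number. WT ethanol libraries 1 and 2 are alone in holding Xist, WT ethanol library 1 is alone in high Tcf7l2 and Calb2, and KO ethanol library 1 is the highest ethanol library for the blood and oxidative phosphorylation lists.

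The targeted gene was examined first. Trp53 (chr11:69580359-69591873, mm10) stood at 14.8, 20.0 and 7.23 CPM in the WT ethanol libraries and at 23.4, 28.1 and 28.7 CPM in the KO ethanol libraries. All 3 KO libraries lay above all 3 WT libraries, with a log2 fold change of 0.95 (SE 0.60) that did not pass even an unadjusted p of 0.05 in edgeR (adjusted p = 0.982). The allele removes the exons around the start codon and leaves downstream exons in place, so a level summed over the whole gene does not by itself check the genotype. The share of these counts assigned to the transcript NM_001127233, which has an alternative 3′ part, was 7.01% to 23.1% across the 6 WT samples, against 65.7% to 70.6% across the 3 KO samples given saline. Of the KO ethanol libraries, 2 and 3 had 70.6% and 48.3%, whereas library 1, with only 14 counts, had 7.01%. The same 7.01% stood in WT saline libraries 1 and 2 and in WT ethanol library 3, a repeated value that cannot be read as a separate estimate for each library. The transcript share thus set 2 of the 3 KO ethanol libraries apart from WT and was uninformative in the third.

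Across all genes no difference between the genotypes after ethanol passed adjustment in edgeR. Of 14739 genes tested, 333 (2.26%) were lower and 144 (0.977%) were higher in KO at an unadjusted p under 0.05, which is 477 genes or 3.24%. None passed an adjusted p of 0.05 or the level of 0.30 used by the study, and the lowest adjusted p in edgeR was 0.649. DESeq2 passed 3 genes at an adjusted p of 0.05, namely Oprk1, Xist and Rpph1. Every single gene given below is therefore a nominal difference, described by its values, and "passed" here means an unadjusted edgeR p under 0.05. Without WT ethanol library 1 the lower and higher genes numbered 147 and 127, and without KO ethanol library 1 they numbered 237 and 171. They numbered 114 and 230 without KO ethanol library 2, and 251 and 287 without KO ethanol library 3. With length and GC trends removed they numbered 173 and 216, so the lead of the lower genes was not kept throughout. Without both Xist-holding libraries and KO ethanol library 1, they numbered 338 and 264, with WT ethanol then represented by 1 library whose spread was assumed to be that of the other groups.

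Few p53-activated target genes separated the genotypes. Of 65 listed genes 60 were tested, and 1 was lower (Trp53inp1) and 1 higher (Rprm) at an unadjusted p under 0.05, which is close to the background of 2.26% and 0.977% of all genes. Their median log2 fold change was -0.08, beside -0.03 for all genes tested. In 7 of the 60 every KO library lay below every WT library, against 8.69% of all genes, and in 4 every KO library lay above, against 4.04%. The count of lower targets was 0 without WT ethanol library 1 and 1 without KO ethanol library 1, beside 0.986% and 1.58% of all genes. Leaving out the Xist-holding libraries left 1 WT ethanol library. Trp53inp1 then had a log2 fold change of -1.75, or -1.66 without KO ethanol library 1 as well.

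Some of these targets carry in their promoters the paired decamers that p53 recognises. Of the sequences shown, Cdkn1a and Ccng1 are the textbook arrest genes of the pathway, and Ckap2 is a microtubule gene whose KO libraries all lay below WT, as in 8.69% of all genes, by a log2 fold change of only -0.20 (SE 0.47) that did not pass. The search of RefSeq promoters (GRCm38.p6, 250 bases before to 50 after each start) was for the p53 element, taken as abutting decamers with the C and G of each core intact and at most 2 mismatches elsewhere, a pattern that reads the same on both strands. In the lines that follow the element is in capitals, on the strand of the gene.
Cdkn1a, chr17:29090923-29090952: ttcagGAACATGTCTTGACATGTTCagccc
Ccng1, chr11:40755457-40755486: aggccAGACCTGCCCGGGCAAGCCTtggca
Ckap2, chr8:22185998-22186027: tctgaAGACATGTCCTGACTTGTCAagcct
Such an element was present for 6 of the 48 tested targets with a promoter sequence (12.5%) and for 45 of 11224 tested genes (0.401%). It was also present for 2 of the 253 genes lower in KO that had a promoter sequence (0.791%) and for none of 7 among the 10 lower genes with the smallest p. None of the 6 targets with the element differed at an unadjusted p under 0.05, and their log2 fold changes ran from -0.73 (Cdkn1a) to 0.10.

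Trp53inp1, which encodes a stress-induced nuclear partner of p53, was the target that fell. Its level was 48.0, 16.2 and 40.6 CPM in the WT libraries and 8.36, 11.7 and 14.0 CPM in the KO libraries. The value of KO ethanol library 1 rests on 5 counts. No KO library reached the lowest WT library, and the log2 fold change was -1.57 (SE 0.55, edgeR adjusted p = 0.982). Under saline the same contrast gave -0.04 (SE 0.52), in libraries that are shared with none of these. Without WT ethanol library 1 the fold change was -1.25 and no longer passed an unadjusted p of 0.05.

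Rprm, the G2 arrest mediator Reprimo, went the other way. It stood at 37.8, 93.8 and 97.9 CPM in WT and at 155, 130 and 142 CPM in KO, with a log2 fold change of 0.90 (SE 0.38) and no overlap. The lowest WT value was that of library 1, and without this library the fold change was 0.59 and did not pass, nor did the 0.83 without KO ethanol library 1. Under saline Rprm had the opposite sign (-0.74, SE 0.38) and did not pass, at 169 to 227 CPM in WT and 93.3 to 148 CPM in KO. In WT mice Rprm was lower after ethanol than under saline (-1.32, SE 0.38) at an unadjusted p under 0.05.

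The arrest genes overlapped between genotypes. Cdkn1a, which encodes the cyclin-dependent kinase inhibitor p21, stood at 106, 20.2 and 48.7 CPM in WT and at 56.8, 24.1 and 28.9 CPM in KO. Its log2 fold change was -0.73 (SE 0.54), with 0.05 without WT ethanol library 1 and -1.14 without KO ethanol library 1, none of which passed. Without KO ethanol library 1 and the Xist-holding libraries Cdkn1a had -0.88. Ccng1, cyclin G1, stood at 59.2, 33.4 and 81.7 CPM in WT and at 76.9, 42.1 and 24.7 CPM in KO (-0.34, SE 0.52). It had -0.29 without WT ethanol library 1 and -0.80 without KO ethanol library 1, neither of which passed. Without KO ethanol library 1 and the Xist-holding libraries Ccng1 had -1.29. The highest KO values of Cdkn1a and Ccng1, in KO ethanol library 1, rest on 34 and 46 counts. For both genes the spread within a genotype exceeded the difference between genotypes.

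Mdm2, the ubiquitin ligase that restrains p53, was the most even of the targets named here. Its WT values were 34.4, 30.2 and 31.4 CPM and its KO values 40.1, 28.3 and 30.9 CPM, with a log2 fold change of 0.02 (SE 0.32). Zmat3, an RNA-binding target of p53, likewise overlapped (0.23, SE 0.39).

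The death genes of the pathway also overlapped between genotypes. Bax, which permeabilises the mitochondrial outer membrane, stood at 48.0, 98.5 and 90.1 CPM in WT and at 104, 84.2 and 90.4 CPM in KO. Bbc3, which encodes the BH3-only protein Puma, stood at 14.9, 8.78 and 16.3 CPM in WT and at 8.36, 23.4 and 20.6 CPM in KO. The values of each gene overlapped, with log2 fold changes of 0.23 (SE 0.39) for Bax and 0.46 (SE 0.59) for Bbc3. Under saline Bax was lower in KO (-1.12, SE 0.39) at an unadjusted p under 0.05, the opposite direction, and Bbc3 had 0.87 (SE 0.60), which did not pass. Pmaip1, which encodes Noxa, was low throughout, at 3.57, 1.93 and 6.11 CPM in WT and 11.7, 1.26 and 2.03 CPM in KO (-0.21, SE 0.84). The highest Pmaip1 value, in KO ethanol library 1, rests on 7 counts, and without this library and the Xist-holding libraries the fold change was -1.88 and passed an unadjusted p of 0.05.

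Phlda3 and Sesn1 separated the libraries without passing the test. Phlda3, a p53-induced repressor of Akt, stood at 10.1, 10.2 and 18.9 CPM in WT. In KO it stood at 6.69, 6.63 and 8.44 CPM (log2 fold change -0.83, SE 0.50), with 4 counts in KO ethanol library 1. Sesn1, a sestrin that restrains mTORC1, stood at 56.7, 58.3 and 66.2 CPM in WT and at 23.4, 50.9 and 54.8 CPM in KO (-0.45, SE 0.41). The Sesn1 value of KO ethanol library 1 rests on 14 counts, and without this library Sesn1 had -0.19. The related Sesn2 overlapped (-0.80, SE 0.78), with 0 counts in KO ethanol library 1. Sesn2 was higher in KO under saline (1.95, SE 0.83) at an unadjusted p under 0.05. Eda2r, a p53 target of the tumour necrosis factor receptor family, did not pass the filter on low counts, with 40, 1 and 5 counts in the WT ethanol libraries and 0, 2 and 5 in the KO ethanol libraries. Its 40 counts came from WT ethanol library 1 alone.

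**Figure D2:**
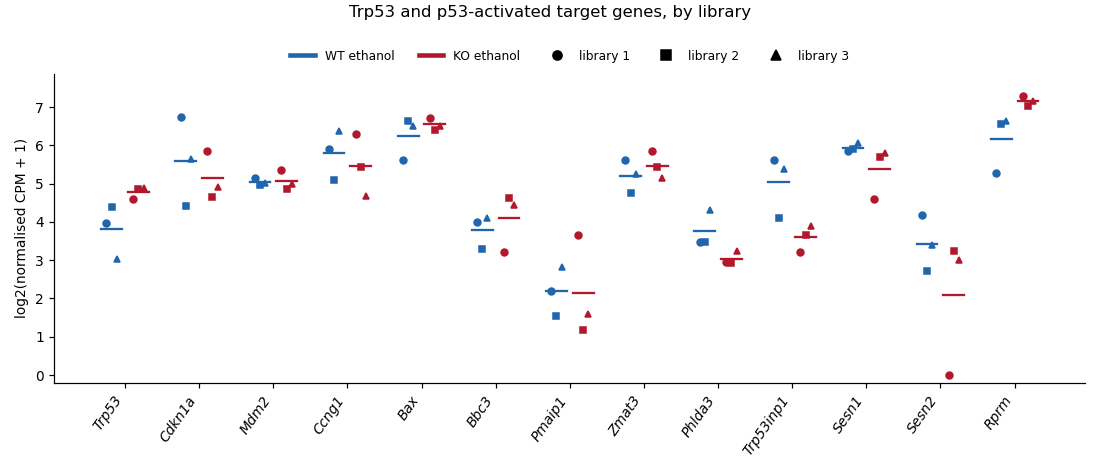
Trp53 and the p53-activated target genes named in the text (horizontal axis) on a log2(normalised CPM + 1) scale (vertical axis) in the 3 WT ethanol (blue) and 3 KO ethanol (red) libraries, with a line at each group mean and shapes for library numbers. Trp53inp1 is the target whose KO libraries all sit below WT and which passed an unadjusted p of 0.05, Rprm sits above WT, and Cdkn1a, Mdm2, Ccng1, Bax and Bbc3 overlap.

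Other parts of the death and damage machinery also differed in few members. Of 31 tested regulators of p53 none passed in either direction, and of 16 Bcl2 family members none did, with medians of -0.04 and -0.15. Hipk2, a kinase that phosphorylates p53, had a log2 fold change of -1.27 (SE 0.73), and Hrk, a neuronal BH3-only gene, one of -0.82 (SE 0.56), and both overlapped. Without the Xist-holding libraries Hrk had -1.46 and was the 1 lower gene of the Bcl2 family. Of 25 caspase and apoptosome genes 1 was lower, beside 2.26% of all genes. This was Xiap, the X-linked inhibitor of caspases, at 122, 56.2 and 156 CPM in WT and 45.1, 44.0 and 50.9 CPM in KO (log2 fold change -1.26, SE 0.47). No KO library reached a WT library, and Xiap passed again without the Xist-holding libraries (-1.71). Casp12 (-1.92, SE 0.92) did not pass and was at most 2.15 CPM in any ethanol library. None of 68 genes of DNA damage signalling and repair, none of 64 S phase and mitosis genes and none of 19 D cyclins, kinases and inhibitors passed, with medians of 0.00, 0.06 and -0.01.

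The smallest p of the lower genes belonged to a neuropeptide receptor. Oprk1, the kappa opioid receptor (chr1:5588493-5606133), stood at 32.7, 19.3 and 51.0 CPM in WT and at 3.34, 4.66 and 7.48 CPM in KO. The value of KO ethanol library 1 rests on 2 counts. The lowest WT library was above the highest KO library. The log2 fold change was -2.62 (SE 0.47, edgeR adjusted p = 0.649), or 6.13-fold lower. It was between -2.96 and -2.22 with any 1 of the 12 libraries left out and -3.07 without the 3 doubtful ethanol libraries. Under saline the difference was 0.54 (SE 0.45).

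Galnt13 and Cdh4 had the same order of libraries. Galnt13, which starts mucin-type O-glycans in neurons, stood at 35.4, 19.3 and 30.2 CPM in WT and at 6.69, 7.42 and 10.9 CPM in KO (-1.71, SE 0.43). Cdh4, the adhesion protein R-cadherin, stood at 71.6, 30.9 and 76.6 CPM in WT and at 11.7, 19.9 and 21.2 CPM in KO (-1.71, SE 0.46). For each the WT libraries were all above the KO libraries, and the saline differences were 0.03 and 0.35. In KO ethanol library 1 the values of Galnt13 and Cdh4 rest on 4 and 7 counts.

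Plxnc1 and Sdc2 were lower as well. Plxnc1, a semaphorin receptor, stood at 144, 38.5 and 95.8 CPM in WT and at 15.0, 35.3 and 30.8 CPM in KO (-1.72, SE 0.47). Sdc2, a heparan sulphate proteoglycan, stood at 95.6, 44.8 and 57.6 CPM in WT and at 20.1, 20.1 and 25.1 CPM in KO (-1.59, SE 0.45). Neither gene overlapped between genotypes after ethanol. Plxnc1 was higher in KO under saline (1.14, SE 0.47) at an unadjusted p under 0.05, the opposite direction, while the saline value of Sdc2 was -0.55 (SE 0.43).

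The X chromosome held 31 of the 333 lower genes (9.31%) and 522 of the genes tested (3.54%), and the sex-linked RNA of 2 WT ethanol libraries moved with this count, its part in which was not tested. Xist itself was at 870, 1759 and 2.13 CPM in WT and at 0.00, 2.05 and 0.38 in KO, so its difference followed the sex-linked RNA of those libraries. A further 3 X-linked genes were among the 10 lower genes with the smallest p. Rps6ka6, an S6 kinase of the RSK family, stood at 40.5, 14.4 and 42.6 CPM in WT and at 1.67, 7.42 and 6.66 CPM in KO. Tenm1, a teneurin, stood at 63.3, 19.1 and 35.5 CPM in WT and at 11.7, 10.0 and 9.90 CPM in KO. Htr2c, a serotonin receptor, stood at 141, 32.7 and 86.1 CPM in WT and at 0.00, 6.95 and 16.2 CPM in KO. In KO ethanol library 1 Rps6ka6, Tenm1 and Htr2c had 1, 7 and 0 counts. WT ethanol library 3, which has Y-linked RNA and no excess of Xist, was above every KO library for these 3 genes, and without libraries 1 and 2 the log2 fold changes were -2.78, -1.75 and -3.21, and all 3 passed an unadjusted p of 0.05. Htr2c, which is abundant in choroid plexus, was higher in KO under saline (4.03, SE 1.03), also at an unadjusted p under 0.05. Tenm1 was likewise higher in KO under saline (1.35, SE 0.55) at an unadjusted p under 0.05, while Rps6ka6 had -0.65 (SE 0.65) and did not pass. When autosomal genes alone were tested, 446 genes passed an unadjusted p of 0.05.

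Sterol genes were lower in KO in 3 of 24 cases. Insig1, which holds the sterol-regulated transcription factor SREBP in the endoplasmic reticulum, stood at 131, 93.8 and 115 CPM in WT and at 36.8, 42.2 and 67.7 CPM in KO (log2 fold change -1.19, SE 0.33). Stard4, a cholesterol carrier, stood at 14.6, 19.3 and 20.3 CPM in WT and at 3.34, 9.47 and 9.45 CPM in KO (-1.13, SE 0.45). In both genes the genotypes did not overlap, and Stard4 had -0.93 and did not pass without KO ethanol library 1. Stard4 had 2 counts in that library. Of 24 sterol genes 3 were lower and 1, Tm7sf2, was higher at an unadjusted p under 0.05, beside 2.26% and 0.977% of all genes, and in 9 of 24 every KO library lay below every WT library, against 8.69% of all genes.

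Hmgcs1, an early enzyme of the pathway, was among these 9 but did not pass the test, at 677, 785 and 891 CPM in WT and 550, 545 and 573 CPM in KO (-0.50, SE 0.36). The list's median log2 fold change was -0.44 after ethanol and -0.10 under saline. The count of lower sterol genes was 3 without WT ethanol library 1 and 3 without KO ethanol library 1, beside 0.986% and 1.58% of all genes. Insig1 was among them each time. Without the Xist-holding libraries Insig1 had -1.19, and without KO ethanol library 1 as well it had -1.07. All members tested had an adjusted p of 0.982 or more.

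Among 27 tested glutamate and GABA receptor genes 3 were lower, all subunits of the GABA-A receptor, and none was higher, beside 2.26% and 0.977% of all genes. Gabra4 stood at 88.0, 85.0 and 96.4 CPM in WT and at 46.8, 41.4 and 38.4 CPM in KO (-1.10, SE 0.38), with narrow groups that did not overlap. Gabrg3 was low, at 6.96, 2.81 and 2.78 CPM in WT and 1.67, 0.95 and 1.20 CPM in KO (-1.89, SE 0.68). Its value in KO ethanol library 1 rests on 1 count. Gabrg1 overlapped, at 76.7, 13.9 and 56.0 CPM in WT and 30.1, 12.5 and 13.8 CPM in KO (-1.50, SE 0.67). The list's median was -0.35 after ethanol and 0.53 under saline. The members that passed changed with the libraries. Without WT ethanol library 1 they were Gabra4 and Gabrb2, while Gabrg3 had -1.29 and Gabrg1 -0.99. Without KO ethanol library 1 they were Gabra4, Gabrg1 and Gabrg3. Without the Xist-holding libraries they were Gabrb2 and Gabrg1, while Gabra4 had -1.17 and did not pass, and without all of these they were Gabra3, Gabrb2 and Gabrg1.

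Of 29 tested long neuronal genes 2 were lower and none was higher, beside 2.26% and 0.977% of all genes. Erbb4, a neuregulin receptor of interneurons, stood at 55.2, 57.4 and 88.0 CPM in WT and at 20.1, 33.6 and 38.8 CPM in KO (-1.08, SE 0.40). The genotypes did not overlap for Erbb4, which had -0.89 and did not pass without KO ethanol library 1. Klf4 was the 1 lower gene of 22 immediate early genes (-1.55, SE 0.71), and it had -1.16 without WT ethanol library 1 and -1.36 without KO ethanol library 1, neither of which passed. Btg1, an antiproliferative gene, had -0.74 (SE 0.37) and did not pass. None of 30 synaptic vesicle release genes and none of 24 antioxidant and NRF2 pathway genes passed.

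Of 29 genes of the unfolded protein and integrated stress response, 1 was lower and 1 higher, beside 2.26% and 0.977% of all genes. Slc7a11, the cystine transporter, stood at 123, 23.9 and 31.7 CPM in WT and at 5.01, 20.1 and 19.2 CPM in KO (-1.89, SE 0.77), and had -0.78 and did not pass without WT ethanol library 1. Chac1, which degrades glutathione, stood at 4.47, 4.57 and 3.33 CPM in WT and at 6.69, 12.9 and 6.09 CPM in KO (1.10, SE 0.44), and had 1.43 and did not pass without the Xist-holding libraries.

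Among the 10 genes higher in KO with the smallest p were noncoding RNAs that were highest in the shallow KO ethanol library 1. Rpph1, the RNA of ribonuclease P, stood at 1.02, 2.46 and 1.20 CPM in WT and at 110, 9.55 and 5.65 CPM in KO. Rmrp, the RNA of ribonuclease MRP, stood at 0.34, 2.64 and 1.02 CPM in WT and at 48.5, 7.97 and 4.57 CPM in KO. Rn45s, the ribosomal RNA precursor, stood at 159, 349 and 267 CPM in WT and at 4649, 644 and 417 CPM in KO. All KO libraries lay above all WT libraries for the 3 RNAs, with log2 fold changes of 4.64, 3.82 and 2.88 (SE 1.24, 1.21 and 0.95). Without KO ethanol library 1 the log2 fold changes were 2.35, 2.37 and 1.04, and Rpph1 and Rmrp still passed. Without the Xist-holding libraries as well they were 2.64, 2.60 and 0.98, and none passed. Under saline all 3 were lower in KO (-4.87, -4.99 and -3.78). Mir8097 had 0.6, 6.8 and 7.5 estimated counts in KO and 0 in each WT library, too few for a fold change.

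Lin7b, a synaptic scaffold gene, Timm10b, a mitochondrial import gene, and Gm1673 were higher in KO by 1.70 (SE 0.54), 1.36 (SE 0.46) and 2.02 (SE 0.69) on the log2 scale and were also highest in KO ethanol library 1. Their differences were 0.41, 0.65 and 0.54 without the 3 doubtful libraries, and none passed. The other 3 higher genes had 2.17 (Sypl2), 2.34 (Slc9a2) and 0.93 (Bcl6) without those libraries, and Sypl2 and Slc9a2 passed. Sypl2, a synaptophysin relative, stood at 1.36, 2.64 and 1.39 CPM in WT and at 10.0, 7.74 and 4.88 CPM in KO (2.02, SE 0.62). Under saline Sypl2 was lower in KO (-1.28, SE 0.57) at an unadjusted p under 0.05, the opposite direction. Slc9a2, a sodium-proton exchanger, stood at 1.19, 1.58 and 1.48 CPM in WT and at 1.67, 9.00 and 6.15 CPM in KO (2.15, SE 0.67). Bcl6, a transcriptional repressor, stood at 5.55, 10.7 and 9.82 CPM in WT and at 30.1, 25.0 and 12.5 CPM in KO (1.33, SE 0.43). In each the lowest KO library was above the highest WT library, although only narrowly for Slc9a2 and Bcl6. The lowest KO value of Slc9a2, in KO ethanol library 1, rests on 1 count, and without this library Slc9a2 had 2.42.

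**Figure D3:**
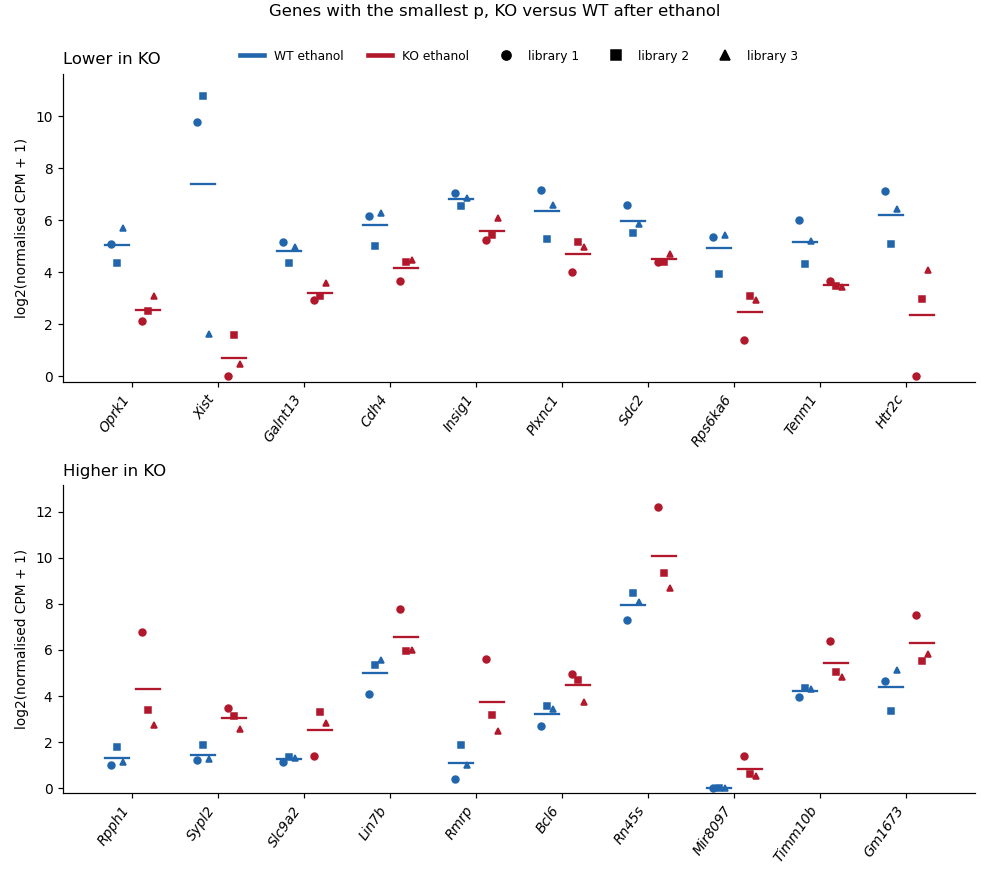
The 10 genes lower and the 10 genes higher in KO with the smallest p (horizontal axes) on a log2(normalised CPM + 1) scale (vertical axes) in the 3 WT ethanol (blue) and 3 KO ethanol (red) libraries, with lines at group means. Oprk1, Galnt13, Cdh4 and Insig1 are low in all 3 KO libraries, Xist is high in WT libraries 1 and 2 alone, and Rpph1, Rmrp and Rn45s are highest in KO library 1.

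Ndufs7 (1.09, SE 0.46) and Atp5d (1.20, SE 0.53) were higher, 2 of 44 nuclear-encoded oxidative phosphorylation genes, beside 0.977% of all genes. The genes of this list had a median log2 fold change of 0.92. Their summed level was 4834, 9111 and 11301 CPM in the WT ethanol libraries and 28769, 7978 and 7789 CPM in the KO ethanol libraries, so KO ethanol library 1 alone was above the WT range. Without this library the list's median was -0.12 with none of 44 higher, and without the Xist-holding libraries as well it was -0.55. Ndufs7 then had 0.23 and Atp5d -0.31. The red blood cell list summed to 157, 102 and 298 CPM in WT and to 1331, 65.4 and 60.7 CPM in KO, the same library being high. None of its 7 genes passed, with a median of 1.22. Without KO ethanol library 1 the median turned to -1.67 and 5 of the 7 were lower, beside 1.58% of all genes. These were Hba-a1, Hba-a2, Hbb-b2, Hbb-bt and Alas2. Without the Xist-holding libraries as well the median was -2.10.

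Markers of cell types and neighbouring regions moved with the comparison, and their part in the differences of other genes was not tested. The marker counts that follow stand beside 2.26% of all genes lower and 0.977% higher. The 5 thalamic genes had a median of -0.99 with 2 lower, and they summed to 636, 40.1 and 43.5 CPM in WT and to 11.7, 44.3 and 68.7 CPM in KO. Slitrk6 and Tcf7l2 were these 2 genes, and without WT ethanol library 1 their log2 fold changes were -0.42 and 1.25, and neither passed. Of 8 excitatory neuron genes 1 was lower, and of 10 cortical layer genes 1 was lower and 1 higher. Slc17a6, the vesicular glutamate transporter of subcortical neurons (-2.37), Foxp2 (-2.05) and Calb2 (-3.17) had -0.60, -1.15 and -0.22 without that library, none at a p under 0.05. Fezf2, a marker of deep-layer projection neurons, was higher in KO (1.37, SE 0.62) and had 0.95 without it, which did not pass.

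The striatal list summed to 104, 742 and 355 CPM in WT and to 179, 122 and 372 CPM in KO, with none of 6 genes passing and a median of -0.91. Of the 6 hippocampal genes Calb1 was lower (-1.49, SE 0.58), and it also passed without WT ethanol library 1 (-1.70). Of 10 interneuron genes Calb2 and Gad1, the GABA-synthesising enzyme (-0.72, SE 0.31), were lower, and Gad1 had -0.62 without WT ethanol library 1 and -0.53 without KO ethanol library 1, neither of which passed. Of 9 astrocyte and radial glia genes Gja1, the gap junction gene, was lower (-1.04, SE 0.48), but it had -0.51 without WT ethanol library 1 and did not pass. Aqp4, the water channel, had -1.11 (SE 0.54) and did not pass. The astrocyte list summed to 3654, 2221 and 3132 CPM in WT and to 2835, 1980 and 1876 CPM in KO. None of 10 oligodendrocyte lineage, 10 microglial, 8 endothelial, 8 mural and meningeal or 6 choroid plexus genes passed.

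**Figure D4:**
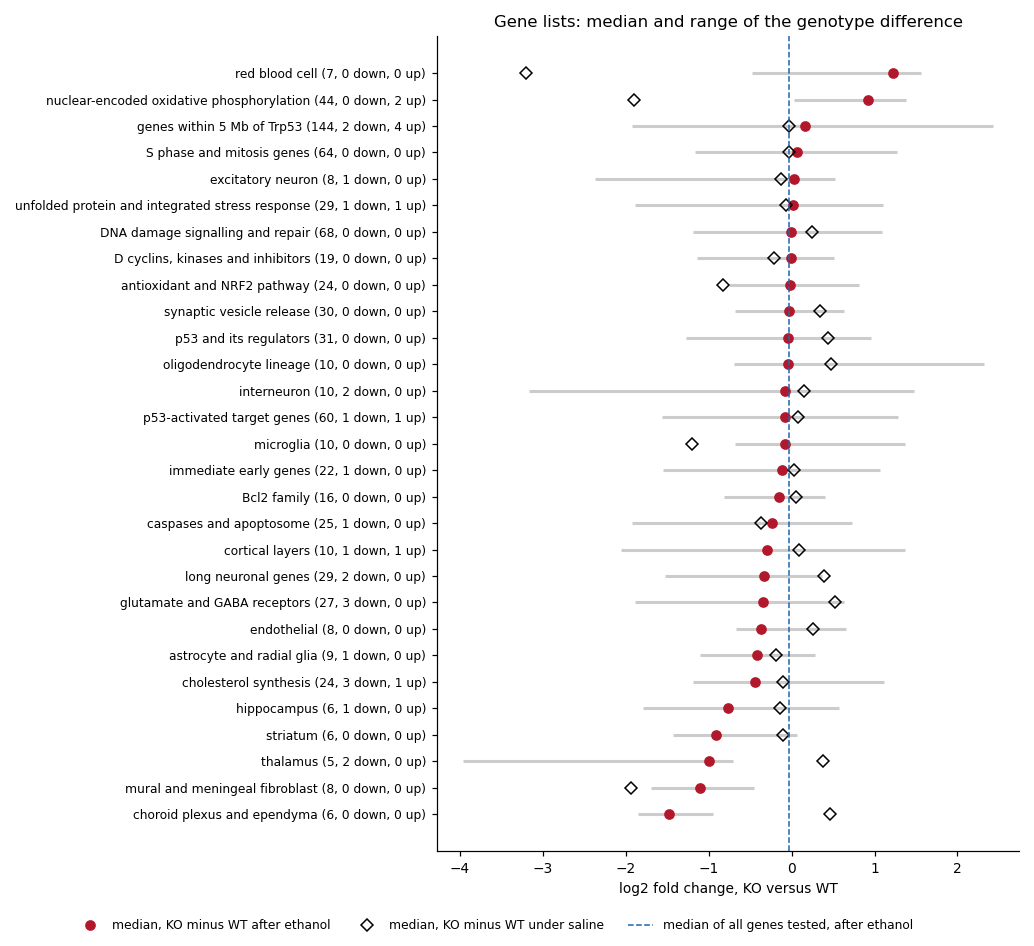
Median (red points) and range (grey bars) of the log2 fold change, KO versus WT after ethanol (horizontal axis), for each gene list (vertical axis), with the median under saline (open diamonds) and the median of all genes after ethanol (dashed line, -0.03). Labels give the genes tested and those down or up in KO after ethanol at an unadjusted p under 0.05. The p53-activated targets sit at -0.08, the cholesterol list at -0.44 and the oxidative phosphorylation list at 0.92, which is -0.12 without KO ethanol library 1.

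Genes near the targeted locus were counted because they are inherited with the allele. Of 144 genes tested within 5 Mb of Trp53 on chromosome 11, 2 were lower and 4 higher, beside 2.26% and 0.977% of all genes, with a median of 0.17. Smtnl2 was lower (-1.92, SE 0.69), and it had -1.14 and did not pass without WT ethanol library 1. The other lower gene, 6330403K07Rik, stood at 246, 215 and 296 CPM in WT and at 115, 159 and 161 CPM in KO (-0.79, SE 0.36), with no overlap, and did not pass without WT ethanol library 1 (-0.79) or without KO ethanol library 1 (-0.66). Rpain (1.34, SE 0.56), Zmynd15 (2.26, SE 0.95), 2810408A11Rik (1.53, SE 0.66) and Ybx2 (1.86, SE 0.84) were higher. Of these 4 only Rpain had no overlap between genotypes, as KO ethanol library 1 had 0.00 CPM of the others. Without WT ethanol library 1 Rpain had 1.08 and Ybx2 2.07, and neither passed. Without KO ethanol library 1 Rpain had 1.21 and did not pass, while Zmynd15 (2.42), 2810408A11Rik (1.84) and Ybx2 (2.25) passed. Zmynd15 had at most 5 counts in any WT ethanol library. No gene of this region was lower without WT ethanol library 1, and 4 were higher, beside 147 and 127 of 14908 genes tested. These 4 were 2810408A11Rik, Tmem107, Xaf1 and Zmynd15. Without KO ethanol library 1, 2 genes of the region were lower and 7 higher, beside 237 and 171 of 15007 genes tested.

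The genotype difference under saline comes from other libraries and so gives a separate view of each gene. Under saline 1543 genes (10.5%) were lower and 1347 (9.14%) higher in KO at an unadjusted p under 0.05, with 8 at an adjusted p under 0.05, and in WT saline library 2 ribosomal protein genes took 18.8% of counts. KO ethanol library 1 and WT saline library 1, whose names open with L, had 719735 and 1953154 counts. They lie on opposite sides of the 2 genotype contrasts, and the part of this layout in the signs and the interaction below was not tested. Only 93 genes passed an unadjusted p of 0.05 in both treatments, and 81 of these had opposite signs. Of the 12 with the same sign, 11 were higher in KO and 1 was lower. The lower gene was 6330403K07Rik, near Trp53, with -0.79 after ethanol and -1.48 under saline. Slc9a2 was among the higher genes, with 2.15 after ethanol and 1.62 under saline. Across all genes the 2 sets of log2 fold changes had a Spearman rho of -0.11, a description over genes that share libraries. The Genotype x Treatment interaction, which uses the same ethanol libraries, had 2237 genes (15.2%) at an unadjusted p under 0.05 and none at an adjusted p under 0.05 in edgeR. For Oprk1 the interaction was -3.16 (SE 0.65) and for Trp53inp1 -1.53 (SE 0.75), with adjusted p of 0.185 and 0.353.

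**Figure D5:**
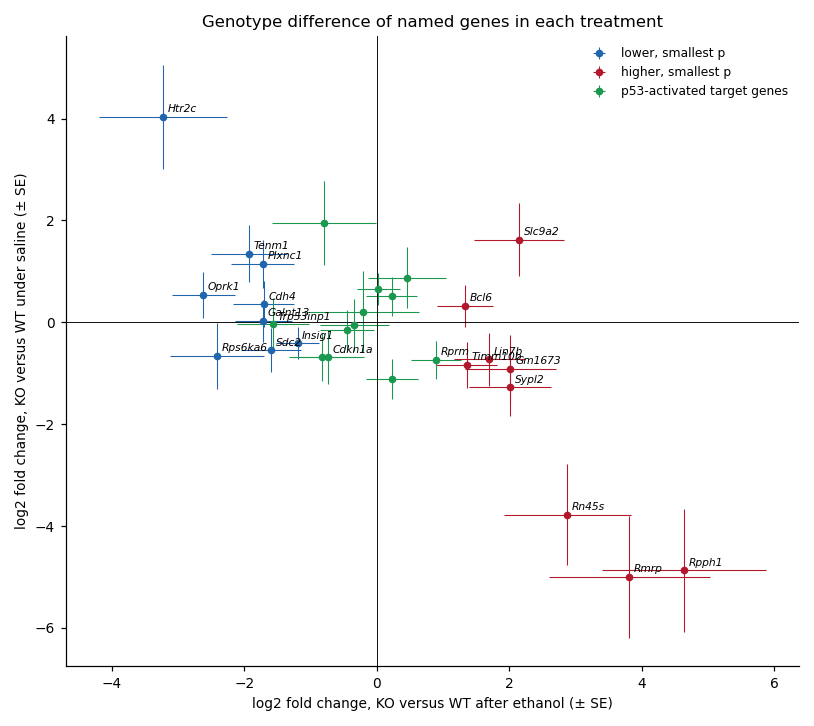
Log2 fold change of KO versus WT after ethanol (horizontal axis) and under saline (vertical axis), each ± SE, for the p53-activated target genes named in the text and the 20 genes with the smallest p other than Xist and Mir8097. Oprk1, Galnt13 and Cdh4 lie left of 0 with saline values of 0.54, 0.03 and 0.35, Slc9a2 is positive on both axes, and Rpph1, Rmrp and Rn45s lie at the lower right.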

How the data were processed

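Stranded total RNA-Seq reads from 12 somatosensory cortex samples were filtered, aligned to mm10 (GRCm38) with Bowtie2 within TopHat and quantified on RefSeq transcripts in Partek Flow by the authors. The deposited estimated counts hold fractions and are not scaled for depth. The deposited RPKM values, made by the authors, share nearly the same sorted values in all libraries and served only as an alternative, on a log2(RPKM + 1) or log2(RPKM + 0.1) scale with limma 3.58.1. Whether a library came from laser dissection or a tissue punch is not given in the sources used here.

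Groups came from the labels, with libraries numbered by accession order. Counts of 35840 transcripts were summed to 24452 gene symbols and rounded. The edgeR 4.0.16 quasi-likelihood test (R 4.3.3) used the default count filter, TMM factors and 1 mean for each of 4 groups over all 12 libraries, with two-sided tests and Benjamini-Hochberg adjustment over all genes. CPM values are TMM-normalised, except the upper limits for Y-linked genes, which are 3 counts of the library total. Files give the end coordinate 1 base late, which was corrected. An exact permutation test of 3 libraries against 3 cannot go below 0.1, so overlap is described. The pipeline was tested on simulated data.

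The comparison and gene lists were chosen with earlier results of these data known. Genes were named by rule: Trp53, 12 fixed p53 targets and others at an unadjusted p under 0.05, the 10 smallest p in each direction, and, for each other list, up to 3 members by p (4 near Trp53) and its most abundant member. Tm7sf2, Ckap2, 6330403K07Rik, Ybx2 and members that passed without the doubtful libraries alone were added after their values were seen, and not every gene of the rule is reported here. Alternatives were DESeq2 1.42.0, other scaling, filters and covariates, single transcripts and leaving out libraries. Leaving out the Xist-holding libraries, or these with KO ethanol library 1, and testing autosomal genes alone were chosen after seeing the data.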

Additional observations from a re-analysis of the deposited data

How the results depend on the processing

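The total of 477 genes at an unadjusted p under 0.05 was 264 with at least 10 counts in every library. It was 950 without both libraries whose names open with L, KO ethanol library 1 and WT saline library 1. Other alternatives stayed within 1.5 times of 477, apart from single libraries. The total ran from 274 (without WT ethanol library 1) to 739 (without WT ethanol library 2) as each library was left out. Higher genes outnumbered lower ones with length and GC trends removed (173 lower, 216 higher) and without KO ethanol library 2 or 3. The median transcript length was 4591 bases in the lower genes, 1558 in the higher genes and 2958 in all genes tested. The count at an adjusted p under 0.05 was 0 in edgeR and in limma on log2 RPKM, 3 with DESeq2, and 0 to 3 as each library was left out, the 3 being Xist, Ddx3y and Eif2s3y without WT ethanol library 3. The count of lower p53 targets, 1 as reported, was 3 of 90 transcripts when each transcript was tested, beside 431 of 21715 transcripts in all. It was 0 under the minimum of 10 counts, beside 165 of 7624 genes. With length and GC trends removed it was 0, beside 173 of 14678 genes. As each library was left out it ran from 0 to 3, beside 114 to 487 lower genes in all. Trp53 had 0.99 and passed an unadjusted p of 0.05 with the 6 ethanol libraries alone. The causes were not tested.

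Among single genes, Mdm2 turned to -0.000174 with at least 10 counts in every library, -0.12 without the L libraries, -0.12 with the first letter as a covariate, and -0.089 without KO ethanol library 1 and the Xist-holding libraries. With length and GC trends removed Ccng1 turned to 0.36, Bax to -0.14 and Pmaip1 to 0.21, and Pmaip1 was 0.10 on log2(RPKM + 1). Zmat3 was -0.019 with the first letter as a covariate. Without KO ethanol library 1 and the Xist-holding libraries Bax was -0.049, Atp5d -0.31 and Tcf7l2 1.27, and Tcf7l2 was 0.98 without the Xist-holding libraries alone. As each library was left out, Cdkn1a ran from -1.14 to 0.049, Mdm2 from -0.11 to 0.18, Ccng1 from -0.80 to 0.051, Bax from -0.014 to 0.47, Pmaip1 from -1.24 to 0.55 and Tcf7l2 from -4.78 to 1.25. Of the other values of single genes, 1383 kept their direction and side of the threshold, 239 kept the direction but lost an unadjusted p under 0.05, and 19 gained one. Oprk1, Galnt13, Cdh4, Insig1 and Plxnc1 passed in every alternative that tested them. No paired analysis was possible because the labels give the groups no shared replicate numbers. Groups of 3 libraries limit precision throughout.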
